A study of Mus musculus with 3 samples.

Results

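The amino acid transporter families examined here are the mouse solute carrier genes whose symbols place them in Slc1, Slc3, Slc6, Slc7, Slc36, Slc38 or Slc43. Selection by symbol alone gave 62 genes of the 20308 in the expression table, and no expression value entered the choice. The symbols also admitted Slc7a6os, which is named for lying on the opposite strand beside Slc7a6 and encodes no carrier, and carriers of related substrates, such as the creatine carrier Slc6a8 and the nucleobase carrier Slc43a3. RNA was sequenced from satellite cells, the stem cells of skeletal muscle, of Pax7-ZsGreen mice aged 3 months, which carry a green fluorescent reporter for the satellite cell factor Pax7. About 200000 fluorescent cells per sample were sorted after collagenase and dispase digestion of hindlimb muscle from several animals. All 3 libraries belong to this single group, with no treated, injured or undigested counterpart. The tissue field of the labels reads tibialis anterior, a single muscle of the hindlimb, while the design text speaks of hindlimb muscles in general.

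Amino acid carriers move amino acids across the plasma membrane or out of lysosomes. Sodium-coupled carriers of the Slc38 and Slc1 families concentrate small neutral amino acids such as glutamine and alanine in the cell. Exchangers of the Slc7 family then trade intracellular glutamine for leucine and other large neutral amino acids, and these exchangers reach the membrane only as a light chain joined to a heavy chain of the Slc3 family. Leucine and arginine that enter the cell are sensed by the kinase complex mTORC1, which is active when satellite cells leave quiescence and grow.

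Levels are TPM, a share of all measured transcripts corrected for transcript length, so genes can be compared with each other. Values are mean ± SD over 3 libraries (n = 3) unless each library is given. Read totals are missing from the table, and library depth is therefore unknown. Nothing states that each library had its own pool of animals. The p-values here rest on library-to-library spread alone, and that spread may be technical. Those of limma also draw on the spread of other genes. A gene is called above 1 TPM where limma's moderated test over all genes, two-sided with Benjamini-Hochberg adjustment, gave an adjusted p below 0.05. In bulk RNA, fewer cells that use a gene and less of its RNA per cell cannot be told apart.

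All 12 satellite cell markers were above 1 TPM, and their summed level lay between 8245 and 8771 TPM. Much of that sum was Sdc4, at 4272, 4219 and 3915 TPM in replicates 1, 2 and 3. Pax7, the gene of the reporter, was at 56.79, 46.37 and 51.09 TPM. Some markers of other cells of muscle were above 1 TPM as well. Of all genes 38.4% were above 1 TPM, and of those tested 60.8%. The counts for leukocytes, mature fibres, erythroid cells and Schwann cells lay near these shares and say little by themselves. All 12 endothelial markers (summed level 1615 to 2933 TPM), 7 of 9 fibro-adipogenic markers (2334 to 2699 TPM), 5 of 11 leukocyte markers (283 to 369 TPM), 5 of 12 mature fibre markers (104 to 223 TPM), 4 of 6 Schwann cell markers (152 to 249 TPM) and 2 of 5 erythroid markers (139 to 453 TPM) were above 1 TPM. The highest of them were the endothelial and fat cell gene Fabp4 (1750, 1356 and 2587 TPM in replicates 1, 2 and 3) and the fibro-adipogenic genes Gsn (992, 888 and 784 TPM), Col3a1 (561, 619 and 576 TPM) and Dpt (575, 554 and 587 TPM). Hba-a2 of red cells was at 166.54, 75.73 and 337.98 TPM. Listed at 0 in all libraries were Cd3e of T cells, Hba-a1 and Alas2 of the red cell lineage and the fast myosin Myh2. Pdgfra, which defines fibro-adipogenic cells, was at 4.98, 0.11 and 0.06 TPM. These markers were chosen for mention after their values were seen. What part these cells had in the carrier levels was not tested.

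Of the 62 genes, 21 were above 1 TPM, 13 were undecided and 28 were listed at 0 in all 3 libraries, whereas 0 were below 1 TPM by limma's adjusted test (2.18% of all genes tested) and 0 at an unadjusted p under 0.05. The background share above 1 TPM was 60.8% of the 12822 genes tested, and the 21 made up 61.8% of the 34 family genes tested. The families were called about as often as all tested genes. Counted over every row of the table, the share above 1 TPM was 33.9% for these families and 38.4% for all genes. The share at 0 in all 3 libraries was 45.2% for these families and 36.9% for all genes. Over every row, the median was 0.517 TPM for these families and 2.24 TPM for all genes. The median of the 34 tested members was 11.5 TPM, and that of all genes above 0 in at least 1 library was also 11.5 TPM. What set the members apart from each other was their range, since those above 1 TPM ran from 6.62 to 961 TPM.

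**Figure D1:**
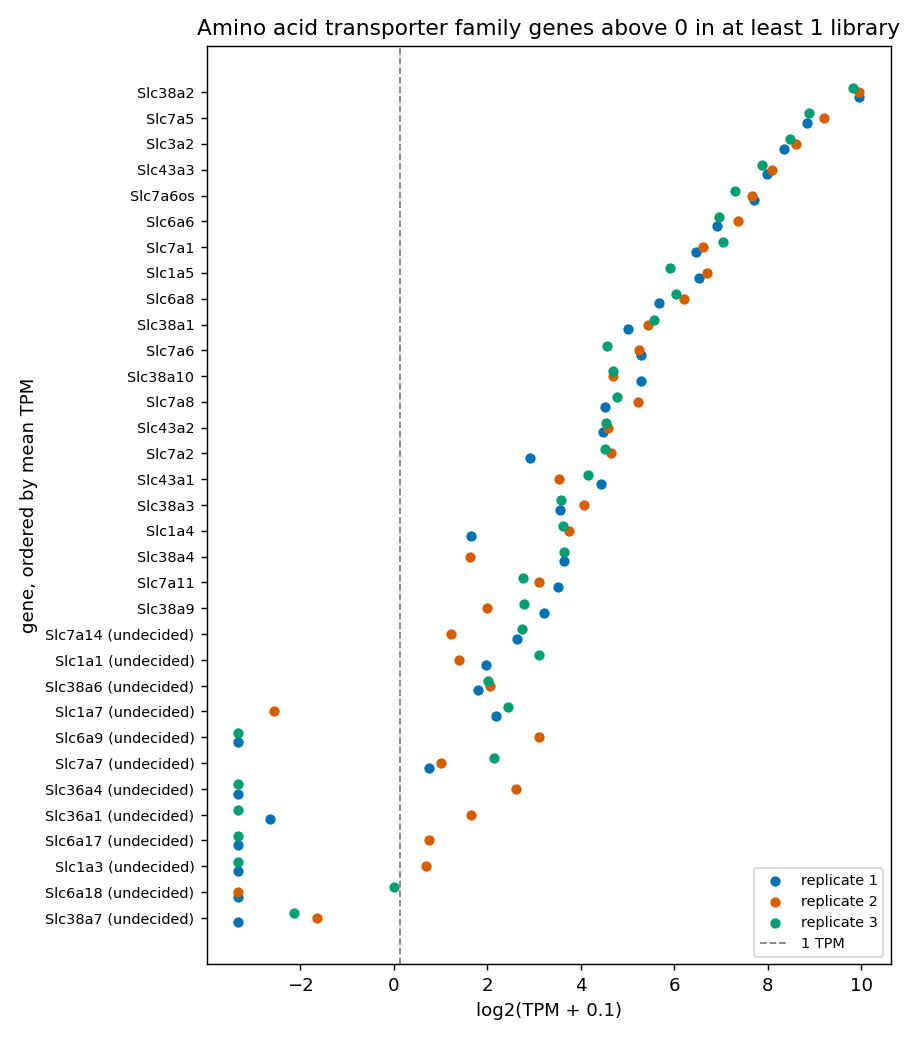
Levels of family genes above 0 in at least 1 library, as log2(TPM + 0.1), 1 point per library, with genes ordered by mean TPM and the dashed line at 1 TPM. Genes at the top lie close together across libraries, whereas Slc6a9, Slc36a4, Slc6a17 and Slc1a3 lie right of the line only in replicate 2.

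Together the 62 genes summed to 2838, 3170 and 2765 TPM in replicates 1 to 3, which is 0.292% of all TPM. Slc38a2 alone held 32.9% of this sum, and Slc38a2, Slc7a5 and Slc3a2 together held 62.3%. The 10 highest genes held 92.3%. The remaining members made up the rest. The sugar and monocarboxylate carriers, Slc2a and Slc16a, summed to 724 ± 44.4 TPM over 25 genes, and the mitochondrial Slc25a carriers to 2088 ± 210 TPM over 47 genes. The amino acid families exceeded the former by 2.01 ± 0.11 and the latter by 0.49 ± 0.053 (log2), each time in 3 of 3 libraries (exact sign-flip permutation test, two-sided, p = 0.25, the smallest that 3 libraries allow). Without Slc7a6os and Slc43a3 the sum was 2376, 2696 and 2373 TPM, above the Slc25a sums of 2066, 2308 and 1890 TPM. Without Slc38a2 it was 1849, 2176 and 1866 TPM, below the Slc25a sum in all 3 libraries (log2 ratio -0.09 ± 0.071), so the direction against Slc25a rested on that gene.

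**Figure D2:**
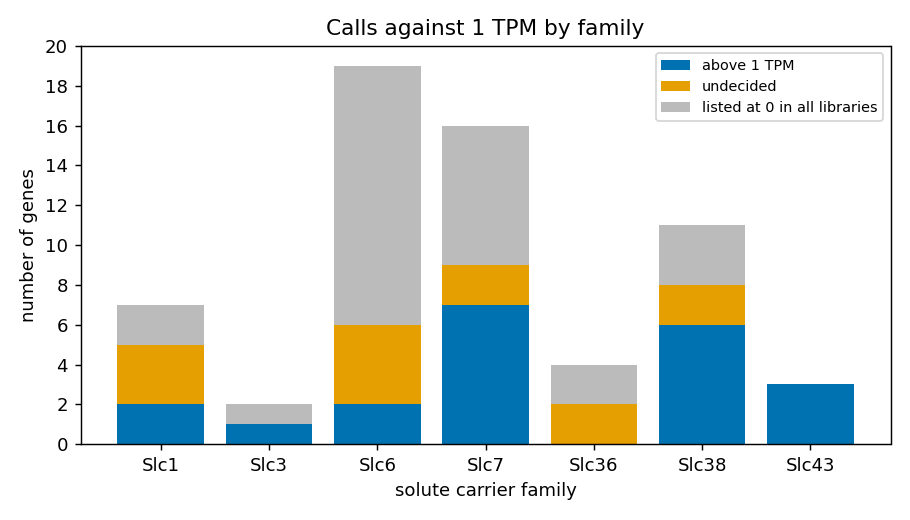
Number of genes in each solute carrier family that were above 1 TPM, undecided, or listed at 0 in all libraries. All 3 Slc43 genes were above 1 TPM, whereas 13 of 19 Slc6 genes were listed at 0. Of all genes in the table, 38.4% were above 1 TPM and 36.9% were at 0 in every library.

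The highest carrier was Slc38a2, also called SNAT2, a sodium-coupled importer of small neutral amino acids that belongs to transport system A. It lies on chromosome 15 (96687392 to 96699730, minus strand, GRCm38) and had 989.59, 994.14 and 898.87 TPM in replicates 1, 2 and 3. The values lay within 1.11-fold of each other, and the gene took rank 190 of all genes in the table. Its mean of 961 ± 53.7 TPM lay 9.77 above 1 TPM on the log2(TPM + 0.1) scale (limma adjusted p = 1.79e-13).

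The other system A genes sit on either side of Slc38a2 on chromosome 15 and were far lower. Slc38a1, or SNAT1, which also takes up glutamine and alanine, lies 44.5 kb from Slc38a2 and was at 32.26, 43.21 and 46.99 TPM. Slc38a4, or SNAT4, lies 295 kb away on the other side and was at 12.37, 3.02 and 12.39 TPM. All libraries had the same order of Slc38a2 over Slc38a1 over Slc38a4. Slc38a2 exceeded Slc38a1 by 4.57 ± 0.34 (23.8-fold) and Slc38a4 by 6.93 ± 1.2 (122-fold) on the log2 scale, both in 3 of 3 libraries (exact sign-flip permutation p = 0.25, the smallest possible). Slc38a4 was low in replicate 2, and without that library the latter ratio was 75.6-fold. All 3 genes were above 1 TPM, and together they made up 34.6% of the family sum.

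System N carriers, which move glutamine, histidine and asparagine with sodium in exchange for protons, were a minor part. Slc38a3, or SNAT3, was at 11.67, 16.7 and 11.82 TPM (13.4 ± 2.86), above 1 TPM with limma adjusted p = 1.75e-05. Slc38a5, or SNAT5, was listed at 0 in every library. Among the remaining Slc38 genes, Slc38a10 was at 39.2, 25.53 and 25.54 TPM (30.1 ± 7.89), with replicate 1 the highest. Slc38a9, a lysosomal arginine sensor that signals to mTORC1, was at 9.18, 3.9 and 6.78 TPM (limma adjusted p = 0.00776, the weakest call of the 21). Slc38a7, a lysosomal glutamine and asparagine exporter, was at 0, 0.22 and 0.13 TPM and was undecided, below Slc38a9 in each library. Slc38a6 was at 3.4, 4.09 and 3.93 TPM and undecided, although its libraries lay close together. In the annotation 77.1% of the 31-base words of its longest transcript also occur in other genes, mostly Noct, so its reads could be divided in more than a single way. Slc38a8 and Slc38a11 were listed at 0.

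The leucine exchanger and its heavy chain were next in level. Slc7a5, also called LAT1, exchanges glutamine for leucine, isoleucine, phenylalanine and other large neutral amino acids. It lies on chromosome 8 (121881150 to 121907694, minus strand) and was at 456.41, 588.08 and 472.91 TPM (506 ± 71.7, limma adjusted p = 8.35e-13). Slc3a2, or CD98 heavy chain, the glycoprotein that carries Slc7a5 and related light chains to the membrane, lies on chromosome 19 (8706882 to 8723369, minus strand). It was at 326.34, 389.8 and 352.84 TPM (356 ± 31.9, limma adjusted p = 8.68e-13). Slc7a5 was above Slc3a2 in each library, and both were highest in replicate 2. In replicate 2 the summed markers of satellite cells (8771 TPM) and leukocytes (369 TPM) were also at their highest. Those of endothelial (1615 TPM), mature fibre (104 TPM) and erythroid cells (139 TPM) were at their lowest. The sums of fibro-adipogenic (2695 TPM) and Schwann cells (174 TPM) lay between the other libraries. Most of the endothelial sum was Fabp4 (1356 TPM in replicate 2), and the remaining endothelial markers differed in which library was lowest. The satellite cell sum of replicate 1 (8681 TPM) was close to that of replicate 2. Single satellite cell markers differed in which library was highest. The part of these cells in the levels of Slc7a5 and Slc3a2 was not tested.

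Light chains that share Slc3a2 were dominated by Slc7a5, which made up 85.9%, 87.3% and 88.4% of their summed TPM in replicates 1 to 3. Slc7a6, or y+LAT2, which exchanges cationic for neutral amino acids, was at 38.97, 37.66 and 23.55 TPM and made up 5.78% ± 1.48 of the sum. Slc7a8, or LAT2, a second exchanger of neutral amino acids, was at 22.79, 37.13 and 27.29 TPM and made up 4.97% ± 0.622. Slc7a11, or xCT, which imports cystine in exchange for glutamate and so feeds glutathione synthesis, was at 11.29, 8.55 and 6.71 TPM and made up 1.55% ± 0.499. These 3 genes were above 1 TPM but each stood at less than 10% of the light chain total. Slc7a7, or y+LAT1, was undecided at 1.6, 1.91 and 4.33 TPM, and Slc7a10, or Asc-1, was listed at 0.

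Heavy chain transcript was lower than the sum of its light chains. The light chain sum was 531.06, 673.33 and 534.79 TPM in replicates 1 to 3, and Slc3a2 fell short of it in each. The log2 ratio of Slc3a2 to the sum was -0.70 ± 0.094, so that the light chains stood 1.62-fold higher (3 of 3 libraries, exact sign-flip permutation p = 0.25). This is a ratio of transcripts, and protein was not measured. The other heavy chain, Slc3a1 or rBAT, which serves cystine and cationic amino acid uptake in kidney and gut, was listed at 0 in all libraries, as was its light chain partner Slc7a9. Slc7a12, Slc7a13 and Slc7a15, further light chains, were also listed at 0.

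**Figure D3:**
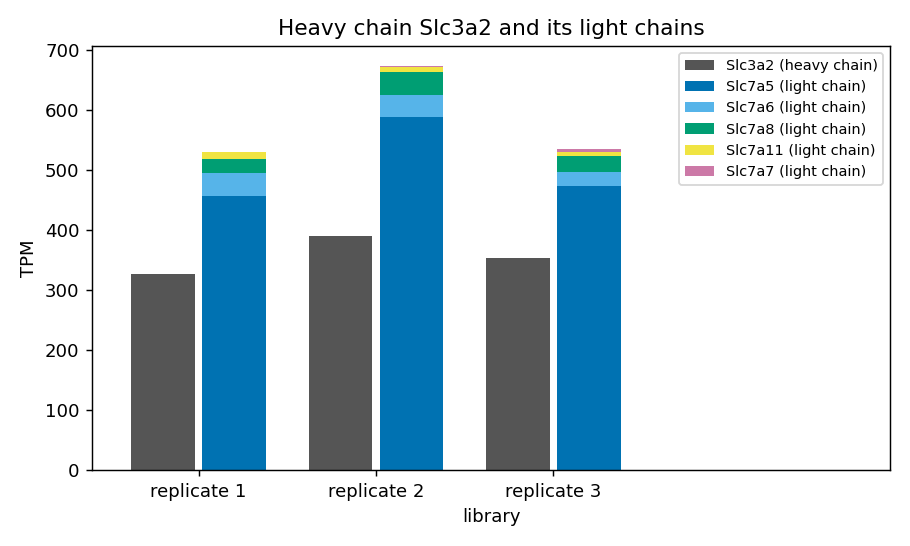
TPM of the heavy chain Slc3a2 (grey) beside the stacked TPM of its light chains in each library. The light chain stack, at 531, 673 and 535 TPM, is taller than the Slc3a2 bar in all 3 libraries and consists mostly of Slc7a5.

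The 3 pairs of light chains compared kept their order in every library, whereas Slc7a6 was above Slc7a8 in replicates 1 and 2 and below it in replicate 3. Slc7a5 exceeded Slc7a8 by 4.14 ± 0.17 on the log2 scale (17.6-fold) and Slc7a11 by 5.84 ± 0.45 (57.4-fold). Slc7a6 exceeded Slc7a7 by 3.72 ± 1.14 (13.2-fold), and without replicate 3, where Slc7a7 was highest, by 20.8-fold. Each direction held in 3 of 3 libraries, with an exact sign-flip permutation p of 0.25, the smallest possible.

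Cationic carriers of the Slc7 family, which bring in arginine and lysine without a heavy chain, were led by Slc7a1, or CAT1. It was at 88.03, 97.13 and 132.36 TPM (106 ± 23.4, limma adjusted p = 9.14e-11), highest in replicate 3. Slc7a2, or CAT2, was at 7.4, 25.01 and 22.89 TPM, low in replicate 1 and above 1 TPM (limma adjusted p = 1.9e-05). Slc7a1 exceeded Slc7a2 by 2.68 ± 0.81 on the log2 scale (6.40-fold, 3 of 3 libraries, exact sign-flip permutation p = 0.25). Slc7a14, a related gene, was at 6.17, 2.24 and 6.63 TPM and just missed the threshold (limma adjusted p = 0.0532). Slc7a3 and Slc7a4 were listed at 0.

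The neutral exchangers of the Slc1 family were called above 1 TPM, whereas its glutamate carriers were undecided or listed at 0. Slc1a5, or ASCT2, the sodium-dependent glutamine exchanger, was at 92.11, 103.55 and 60.09 TPM (85.25 ± 22.5, limma adjusted p = 4.59e-10). Slc1a4, or ASCT1, which prefers alanine, serine and cysteine, was at 3.04, 13.41 and 12.2 TPM, with replicate 1 the low library (limma adjusted p = 0.00278). Slc1a5 was the higher of the pair in each library, by 3.37 ± 1.35 on the log2 scale (10.3-fold, 6.13-fold without replicate 1, exact sign-flip permutation p = 0.25). Among the glutamate and aspartate carriers, Slc1a1, or EAAC1, was at 3.85, 2.55 and 8.52 TPM and was undecided (limma adjusted p = 0.0617). Of its 31-base words, 31.03% also occur elsewhere in the annotated transcripts. Slc1a7 was at 4.46, 0.07 and 5.32 TPM and Slc1a3, the glial carrier GLAST, at 0, 1.51 and 0 TPM, both undecided. Slc1a3 lay below Slc1a1 in each library. Slc1a2 and Slc1a6, of glia and neurons, were listed at 0.

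Within the Slc6 family, which includes many neurotransmitter carriers, only the taurine and creatine carriers were called above 1 TPM. Slc6a6 takes up taurine, an amino sulphonic acid abundant in muscle, and was at 120.84, 165.57 and 123.46 TPM (137 ± 25.1, limma adjusted p = 2.6e-11). Slc6a8 takes up creatine, the carrier of high-energy phosphate in muscle, and was at 50.82, 73.74 and 65.19 TPM (63.25 ± 11.6, limma adjusted p = 5.44e-10). Both were highest in replicate 2, and Slc6a6 exceeded Slc6a8 by 1.11 ± 0.17 on the log2 scale (2.16-fold, 3 of 3 libraries, exact sign-flip permutation p = 0.25).

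The remaining Slc6 genes were undecided or listed at 0. Of the 9 carriers of GABA, glycine, betaine and monoamines, 7 were listed at 0: Slc6a2, Slc6a3, Slc6a4, Slc6a5, Slc6a11, Slc6a12 and Slc6a13. The glycine carrier Slc6a9 was at 0, 8.53 and 0 TPM and was undecided. Other genes, Ccdc24 most of all, hold 42.6% of the 31-base words of its longest transcript. Of the 8 carriers of proline and neutral amino acids in kidney, gut and brain, Slc6a7, Slc6a14, Slc6a15, Slc6a19, Slc6a20a and Slc6a20b were listed at 0. Slc6a17 was at 0, 1.59 and 0 TPM and Slc6a18 at 0, 0 and 0.9 TPM, both undecided.

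The Slc43 family was above 1 TPM in all 3 of its members. Slc43a2, or LAT4, and Slc43a1, or LAT3, let branched-chain amino acids and phenylalanine pass without sodium. Slc43a2 was at 22.03, 24 and 23.26 TPM, and its SD of 0.062 on the log2 scale was the lowest among the 21 genes. Slc43a1 was at 21.65, 11.42 and 17.63 TPM, so that its highest value fell just short of the lowest of Slc43a2. The log2 ratio of Slc43a2 to Slc43a1 was 0.50 ± 0.53 (1.41-fold, 3 of 3 libraries, exact sign-flip permutation p = 0.25), and in replicate 1 the pair was almost level. Slc43a3, a nucleobase carrier, begins 73.0 kb from Slc43a1 on chromosome 2 and was at 253.29, 273.18 and 234.31 TPM (254 ± 19.4). It was the fourth highest gene of all families although amino acids are not its known substrate.

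Proton-coupled carriers of the Slc36 family, which export small amino acids from lysosomes or take them up at acid pH, were not called above 1 TPM. Slc36a1, or PAT1, was at 0.06, 3.03 and 0 TPM and Slc36a4, or PAT4, at 0, 6 and 0 TPM, both undecided and over 1 TPM only in replicate 2. Their within-library difference had no common direction (log2 ratio -0.095 ± 0.82, exact sign-flip permutation p = 1). Slc36a2 and Slc36a3 were listed at 0.

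**Figure D4:**
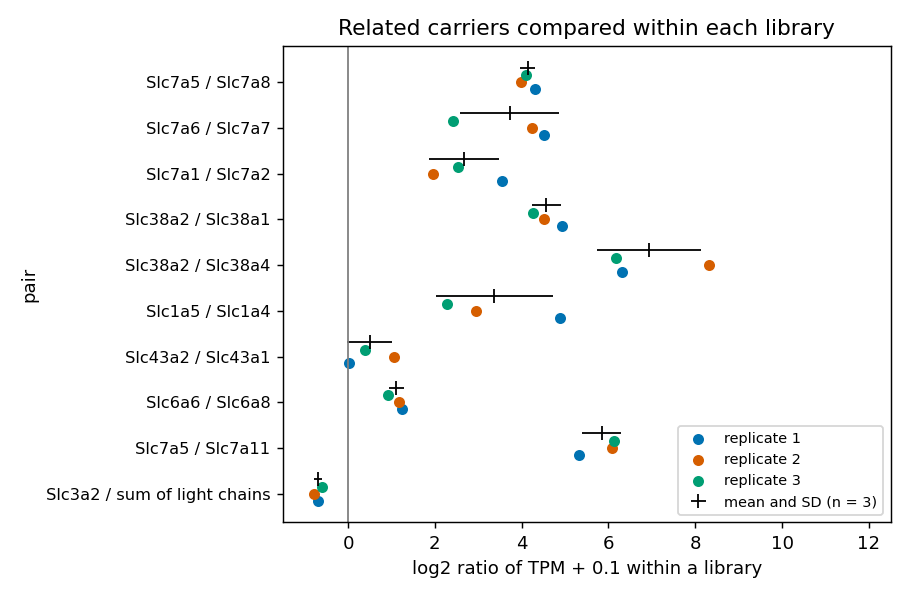
Log2 ratio of TPM + 0.1 between related carriers within each library (points), with the mean and SD over 3 libraries (cross and bar), for pairs without a 0. Slc38a2 over Slc38a4 has the largest mean ratio at 6.93, and Slc3a2 over the sum of its light chains lies below 0 in all 3 libraries.

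The order of the 21 genes was firm only at its top. Slc38a2, Slc7a5, Slc3a2 and Slc43a3 each lay above the next gene with no overlap between libraries. The next after Slc43a3 was Slc7a6os, at 209.53, 200.93 and 158.01 TPM. From Slc7a6os down to Slc38a9, neighbours in the order overlapped, except that the lowest value of Slc6a8, 50.82 TPM, exceeded the highest value of Slc38a1, 46.99 TPM. Slc7a6os ends 2.01 kb from Slc7a6 on chromosome 8 and points towards it. The spread between libraries had a median SD of 0.31 on the log2 scale over the 21 genes, beside 0.38 over the 7796 genes above 1 TPM. In Slc7a2, Slc1a4 and Slc38a4 the highest library was over 3 times the lowest, at 3.38, 4.41 and 4.10 times.

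Replicate 2 held more of the low genes. It had 33 of the 62 genes above 0 (53.2%), against 27 in replicate 1 (43.5%) and 28 in replicate 3 (45.2%). Of all genes, 53.6%, 55.2% and 52.7% were above 0 in replicates 1, 2 and 3, so replicate 2 was highest there too. In all, 5 genes, among them Slc6a9, Slc36a4, Slc6a17 and Slc1a3, were at 1 TPM or more in replicate 2 and at 0 in the others, which is 8.06% of the family rows. In the whole table this held for 2.71% of rows in replicate 2, 2.23% in replicate 1 and 1.8% in replicate 3. The leukocyte marker sum was also highest in replicate 2 (369 TPM against 283 and 296 TPM), whereas the Schwann cell sum was highest in replicate 3 (249 TPM against 152 and 174 TPM in replicates 1 and 2). The part of these cells in the 5 genes was not tested.

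Several members lie beside each other in the genome, and some neighbours differed widely in level. With all 62 genes placed in the GENCODE M21 annotation of GRCm38, 13 pairs lay within 500 kb of each other. Slc7a7 at 2.61 TPM and Slc7a8 at 29.1 TPM are separated by 304 kb on chromosome 14. In the Slc36a1, Slc36a2 and Slc36a3 group on chromosome 11 and the Slc6a12 and Slc6a13 pair on chromosome 6 no gene was called above 1 TPM. The same was true of Slc6a20a beside Slc6a20b on chromosome 9 and of Slc6a3, Slc6a18 and Slc6a19 on chromosome 13.

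When amino acids run short, the factor ATF4 binds with C/EBP partners to elements called CARE and raises carrier and synthesis genes. RefSeq promoters (GRCm38.p6, 250 bases before to 50 after the start) were available for 44 of the 62 genes, as 65 promoters. The 18 genes without a promoter include Slc7a5, Slc43a3, Slc6a6, Slc1a5 and Slc6a8. Only 13 of the 21 genes above 1 TPM could thus be searched. Both strands were searched for the CARE core TGATGNAA and for the AP-1 motif TGANTCA, bound by Fos and Jun. CARE was found in 4 of the 65 promoters (6.15%), beside 3.97% of all 32851, and AP-1 in 9 (13.8%), beside 7.81%. CARE occurred in Slc7a11, Slc1a4 and Slc7a7, and AP-1 in Slc7a1, Slc38a10 and 6 members that were undecided or listed at 0. The 4 promoters with CARE belong to 3 genes, because overlapping promoters of Slc7a7 share a site that was counted in each. No member searched held both motifs. Stretches that end at the base before the start are shown for 3 genes, with motifs in capitals. Slc7a11 is shown for its pair of CARE cores in opposite orientation, which begin 66 and 47 bases before the start. Slc7a1 is shown for its AP-1 motif, 123 bases before the start, and Slc38a2 as the highest carrier, with neither motif in its window. Another promoter of Slc7a1, from a different start, held neither motif and is not shown.
Slc7a11 (chr3:50443614-50443723, minus strand): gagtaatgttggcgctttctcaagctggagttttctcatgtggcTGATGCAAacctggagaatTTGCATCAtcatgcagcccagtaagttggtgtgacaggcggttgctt
Slc7a1 (chr5:148399905-148400034, minus strand): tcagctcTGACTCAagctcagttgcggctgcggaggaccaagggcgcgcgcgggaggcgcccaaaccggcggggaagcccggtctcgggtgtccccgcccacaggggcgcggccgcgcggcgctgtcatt
Slc38a2 (chr15:96699729-96699838, minus strand): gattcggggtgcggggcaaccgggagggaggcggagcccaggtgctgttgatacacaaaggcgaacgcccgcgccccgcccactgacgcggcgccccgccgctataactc
A match is a description of letters and not evidence of binding. Sites outside this window were not searched, and any link between these motifs and the levels was not tested.

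Genes of the response to amino acid shortage were mostly above 1 TPM, at 16 of 21, with 5 undecided and 0 listed at 0 (60.8% of all genes tested were above). The highest were Atf4 itself, at 711.24, 756.44 and 870.36 TPM, its partner Cebpb, at 291.58, 406.31 and 414.18 TPM, and Atf3, at 299.7, 310 and 340.87 TPM. All 3 were lowest in replicate 1 and highest in replicate 3. Asparagine synthetase (Asns), a known ATF4 target, was at 0, 5.4 and 1.05 TPM and was undecided, as was Trib3 at 6.42, 2.57 and 0.42 TPM. Both genes were picked out with their values known. Asns and Trib3 lay below Atf4 in every library, but Atf4 had the highest mean of all 21 genes. Other genes of the list, also named after their values were seen, were above 1 TPM. Among them were Mthfd2 (129 ± 36.8 TPM), Ddit3 (83.8 ± 15.8 TPM) and Psat1 (47.2 ± 7.54 TPM).

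The machinery by which mTORC1 senses amino acids was above 1 TPM in 20 of 29 genes (38.4% of all genes in the table), with 7 undecided and 2 listed at 0. The GTPase Rheb, which activates mTORC1, was at 162.17, 146.32 and 142.98 TPM. Fnip1, a partner of folliculin, was at 143.56, 118.29 and 115.73 TPM, and the lysosomal GTPase Rraga at 92.82, 110.59 and 97.74 TPM. These levels were below those of Slc7a5 and Slc3a2 in each library. The leucine sensor Sesn2 averaged 44.8 ± 11.3 TPM, and the kinase Mtor 7.78 ± 1.15 TPM. Lamtor5 and Nprl2 were listed at 0, and these 4 genes were named after their values were seen.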

How the data were processed

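The 3 libraries of sorted satellite cells form 1 group, taken from their titles, which also number the replicates. The authors deposited TPM per gene symbol, and each column sums to the same total. By its name, the table leaves out mitochondrial genes and TPM was renormalised. Per the submitters' processing notes, which name RSEM 1.2.3, Bowtie 0.12.9 and CASAVA 1.8, the build was mm10. The sources used here do not give roles, settings, strand or annotation, so reads from opposite strands may not be told apart. TPM keeps no read totals, hence no counting interval is given, and a 0 can be a failed estimate.

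Levels were tested as log2(TPM + 0.1) against 1 TPM with limma 3.58.1 in R 4.3.3 (intercept only, empirical Bayes with a variance trend, Benjamini-Hochberg over the 12822 genes above 0 in at least 1 library), on which folds of low genes are understated. The script was tested on simulated data. Ratios within libraries used exact sign-flip permutation tests. Positions and 31-base words, from each gene's longest transcript, are from GENCODE M21 (GRCm38, the assembly of mm10). Alternatives were other pseudocounts, filters, scalings and variance models and leaving out each library. The members, lists, pairs and tests were chosen with earlier results of these data known. Every member is named, apart from an item that is not reported here. Values in each library are given for the 15 highest members, members above 1 TPM with an over 3-fold range and both genes of each pair; of the other amino acid lists the 3 highest genes are named. Further genes and cell type markers are marked as chosen after their values were seen.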

Additional observations from a re-analysis of the deposited data

How the results depend on the processing

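The number of members above 1 TPM was 21 and lay between 21 and 24 under all 10 alternatives. All 21 kept their call under each of them, but the size of the p-values depended on the setting. For Slc38a2 the limma adjusted p was 1.79e-13 in the main fit and 0.000477 without the variance trend. Slc1a1 and Slc7a14 were also called above 1 TPM with a pseudocount of 0.01, with only genes averaging at least 0.1 TPM, without a variance trend, after scaling without the 100 highest genes, and without replicate 2. Slc38a6 was called without the trend and after that scaling. Members below 1 TPM numbered 29 instead of 0 when all genes of the table were tested, since the 28 listed at 0 then entered, and 1 (Slc38a7) with a pseudocount of 1 or without the trend. The summed TPM of 2924 became 4395 after scaling without the 100 highest genes, 1964 without Slc38a2 and 2481 without Slc7a6os and Slc43a3. That last choice, and setting both reduced sums against Slc25a, were made after seeing the data. Leaving out a library gave 2802 to 3004. The log2 ratio of Slc36a1 to Slc36a4 turned positive, to 0.61 with a pseudocount of 0.01 and to 0.34 without replicate 2, which holds nearly all of their signal (range -0.48 to 0.34 with a library left out). Other pairs kept their direction. Other amino acid genes above 1 TPM numbered 44, and 41 to 47 under the alternatives. No paired analysis was possible because the 3 libraries form 1 group. Depth is unknown, so a gene listed at 0 cannot be given an upper limit.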

Other observations

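Amino acid carriers outside these families were also measured. Of 19 such genes in the table, 5 were above 1 TPM (38.4% of all genes in the table), 10 were undecided and 4 were listed at 0. Their median was 2.77 TPM, beside 0.517 TPM for the 62 family genes and 2.24 TPM for all genes in the table. The highest was Slc16a10, a carrier of aromatic amino acids, at 22.29, 30.59 and 29.93 TPM. The mitochondrial glycine carrier Slc25a38 was at 4.41, 34.18 and 14.18 TPM, so that replicate 1 was far below replicate 2. Slc15a4, a lysosomal carrier of histidine and peptides, was at 5.12, 11.97 and 12.18 TPM. The vesicular carriers of glutamate Slc17a6 and Slc17a8 and of GABA and glycine, Slc32a1, named after their values were seen, were listed at 0.

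Genes for proteins that bind carriers at the membrane were above 1 TPM in 3 of 6 cases, beside 60.8% of all genes tested. The integrin Itgb1, which associates with the CD98 heavy chain, was at 962.41, 1030.81 and 898.31 TPM. Cd44, which holds xCT at the membrane, was at 725.51, 856.49 and 706 TPM, far above the 8.85 ± 2.30 TPM of Slc7a11. Bsg, or basigin, was at 191.38, 287.57 and 259.25 TPM. Tmem27, which escorts Slc6 carriers in kidney and was named after its values were seen, was undecided at no more than 0.33 TPM.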
